A study of Mus musculus with 8 samples.

Results

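The enzymes that make nucleotides, together with the pentose phosphate enzymes that supply their ribose, were followed in kidneys of WT and Tsc1-KO mice. The set held 39 genes, taken by symbol from the 30587 genes of the deposited table. All 39 were found under 1 identifier each, and all passed the filter on low counts that left 18048 genes for testing. The data were 8 libraries of total kidney RNA at 28 days of age, 4 from C57BL/6 mice (WT, libraries 1 to 4) and 4 from Tsc1f/f/Aqp2 Cre mice (Tsc1-KO, libraries 5 to 8). Aqp2 encodes the water channel of collecting duct principal cells, so Cre under its promoter is aimed at those cells, whereas the RNA came from every cell type of the kidney. Per the labels the WT mice carried neither the floxed alleles nor Cre, and the strain of the Tsc1-KO mice is not given in them. Loss of Tsc1, strain, floxed alleles and Cre therefore cannot be told apart in this design.

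Purines and pyrimidines are both built on phosphoribosyl pyrophosphate, which is made from ribose phosphate of the pentose phosphate pathway. The purine route assembles IMP on that sugar and then branches to AMP and GMP, the pyrimidine route builds its ring before the sugar is attached, ribonucleotide reductase converts ribonucleotides to deoxynucleotides, and salvage enzymes recycle bases and nucleosides. TSC1 is part of the complex that restrains the kinase mTORC1. In cultured cells, active mTORC1 is known to stimulate pyrimidine synthesis through phosphorylation of the enzyme CAD, purine synthesis through the transcription factor ATF4 and its mitochondrial folate target MTHFD2, and pentose phosphate genes through the sterol regulatory factors. The comparison asks whether the transcripts of these enzymes differed between the kidneys.

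Each library held between 26453073 and 31226739 counted reads. The median log2 difference between Tsc1-KO and WT over all tested genes was 0.00. Counts over the whole Tsc1 gene differed by −0.05 on the log2 scale (adjusted p = 0.933), but such counts do not check the label where a deletion removes part of a gene in some cells. The 6 A-type intercalated cell markers were all called higher in Tsc1-KO. All 6 are named in the study of these mice as raised in Tsc1-KO kidneys, so their calls here are not independent evidence. Of the 4 principal cell markers tested, the sodium channel subunit Scnn1g was called higher (log2 difference 0.48, adjusted p = 0.0391) and Fxyd4 lower (−0.69, adjusted p = 0.0249), each with no overlap of the groups. Aqp2 (0.11, adjusted p = 0.825) and Aqp3 (−0.30, adjusted p = 0.261) did not pass the test. Of the 8 proximal tubule markers 4 were called lower, and the summed level of the 8 was 14432 to 15898 CPM in WT, against 8491 to 12229 CPM in Tsc1-KO. Over all genes, 3.5% were called higher and 1.16% lower by edgeR, and in 11.5% the groups did not overlap. CPM is the read count scaled to a common library size with TMM factors. In bulk tissue, fewer cells of a type and less RNA per cell cannot be told apart. In 4 libraries, WT 3, WT 4, Tsc1-KO 7 and Tsc1-KO 8, Y-linked genes held 4725 to 6556 reads, against 104 to 679 in the other 4, so each genotype held 2 libraries of each kind. Whether the 8 libraries stem from 8 animals is not stated in the labels, and the p-values rest on the variation among libraries alone.

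The promoters of Rrm2, Rrm1 and Prps2 are shown because these were the 3 members with a positive log2 difference and an unadjusted p under 0.05. Each window runs from 250 bases before to 50 bases after the RefSeq start (GRCm38.p6) and is printed along the strand of the gene. The Rrm2 window is chr12:24708004-24708303 on the plus strand, the Rrm1 window is chr7:102441445-102441744 on the plus strand, and the Prps2 window is chrX:167382700-167382999 on the minus strand. Capitals mark matches to the motifs searched.
Rrm2: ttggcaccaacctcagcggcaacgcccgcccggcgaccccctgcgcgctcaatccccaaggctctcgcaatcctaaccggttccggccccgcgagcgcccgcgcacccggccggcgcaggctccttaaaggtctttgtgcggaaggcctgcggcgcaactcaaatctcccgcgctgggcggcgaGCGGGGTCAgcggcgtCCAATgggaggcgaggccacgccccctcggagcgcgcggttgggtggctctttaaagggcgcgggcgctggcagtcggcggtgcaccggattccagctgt
Rrm1: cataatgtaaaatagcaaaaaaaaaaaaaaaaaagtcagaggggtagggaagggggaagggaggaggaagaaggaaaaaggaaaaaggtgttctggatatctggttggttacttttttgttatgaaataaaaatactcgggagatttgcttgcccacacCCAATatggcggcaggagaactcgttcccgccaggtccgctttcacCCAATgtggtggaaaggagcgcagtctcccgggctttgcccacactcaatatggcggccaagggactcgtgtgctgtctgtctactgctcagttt
Prps2: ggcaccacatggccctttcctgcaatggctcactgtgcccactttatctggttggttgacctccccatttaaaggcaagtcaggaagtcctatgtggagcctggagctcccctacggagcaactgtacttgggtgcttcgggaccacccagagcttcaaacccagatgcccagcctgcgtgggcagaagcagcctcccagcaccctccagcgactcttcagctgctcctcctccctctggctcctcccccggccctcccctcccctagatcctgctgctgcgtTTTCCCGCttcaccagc
In these windows the capitals are 1 CCAAT box and 1 antioxidant-type element in Rrm2, 2 CCAAT boxes in Rrm1, and 1 E2F-type element in Prps2. The letters searched, on both strands, were CACGTG for the E-box, TGATGNAAT for the ATF4 element, TGACNNNGC for the antioxidant element, TTTGGCGC, TTTCCCGC or TTTGGCGG for E2F, CCAAT, and TCACCCCAC for the sterol element. No 2 of these motifs contain one another. Of the 39 members 36 had a RefSeq window, all but Pfas, Dhodh and Rrm2b.

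The E-box, the sequence bound by MYC and related factors, stood in the windows of 6 of the 36 members (16.7%), namely Atic, Dtymk, Impdh2, Nme1, Paics and Tyms, against 8.09% of 27025 genes. The CCAAT box stood in 14 members (38.9%) against 41.1% of genes, and the antioxidant element in 7 members (19.4%) against 14.0%. An E2F match stood in Ppat and Prps2 (5.56%) against 2.39% of genes. The ATF4 and sterol letters were in none of the 36 windows, and in 1.08% and 0.61% of genes. At shares this low, no match in 36 windows is the likely outcome, so their absence says nothing particular of the members. The 27025 genes were not limited to those tested in these kidneys, so the shares are not a like comparison. A gene with several windows was counted as holding a motif if any window did. These matches describe the letters of the windows and not binding.

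None of the 39 members was called higher or lower in Tsc1-KO at an adjusted p under 0.05 (edgeR quasi-likelihood test, Benjamini-Hochberg adjustment over all genes tested). Over all genes, 3.5% were called higher and 1.16% lower. An unadjusted p under 0.05 was reached by 4 members, Rrm2, Prps2 and Rrm1 with a positive and Rpia with a negative difference, and by 17.6% of all genes. In every member the WT and Tsc1-KO libraries overlapped, whereas in 11.5% of all genes each library of one genotype stood above each library of the other. The log2 difference was positive in 20 members and negative in 19, with a median of 0.01 and a range from −0.38 (Ctps) to 0.89 (Rrm2). Its median size regardless of sign was 0.09 among the members and 0.19 over all genes. The members and all genes were not matched in read count, so these sizes are not a like comparison. Of the 39 members, 33 had a difference below 0.25 in size on the log2 scale.

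These transcripts were measured closely enough to bound most differences in whole-kidney RNA. The intervals do not bound differences within principal cells, at which Cre was aimed. On simulated counts edgeR recovered 6% of changes of 0.5 on the log2 scale. The standard error of the log2 difference ranged from 0.09 to 0.35 with a median of 0.12. The 95% interval lay within 1 on the log2 scale for 38 members, all but Rrm2, and within 1.5-fold in either direction for 31. Counts per library ran from 24 (Nme2) to 11484 (Tkt). The coefficient of variation between libraries had a median of 9.89% in WT and 10.1% in Tsc1-KO. By route, the median log2 difference was 0.03 for the 11 purine synthesis genes, −0.06 for the 5 pyrimidine synthesis genes and −0.07 for the 7 pentose phosphate genes. The 3 routes lay between −0.07 and 0.03 while the members of each route differed among themselves by more than that.

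**Figure D1:**
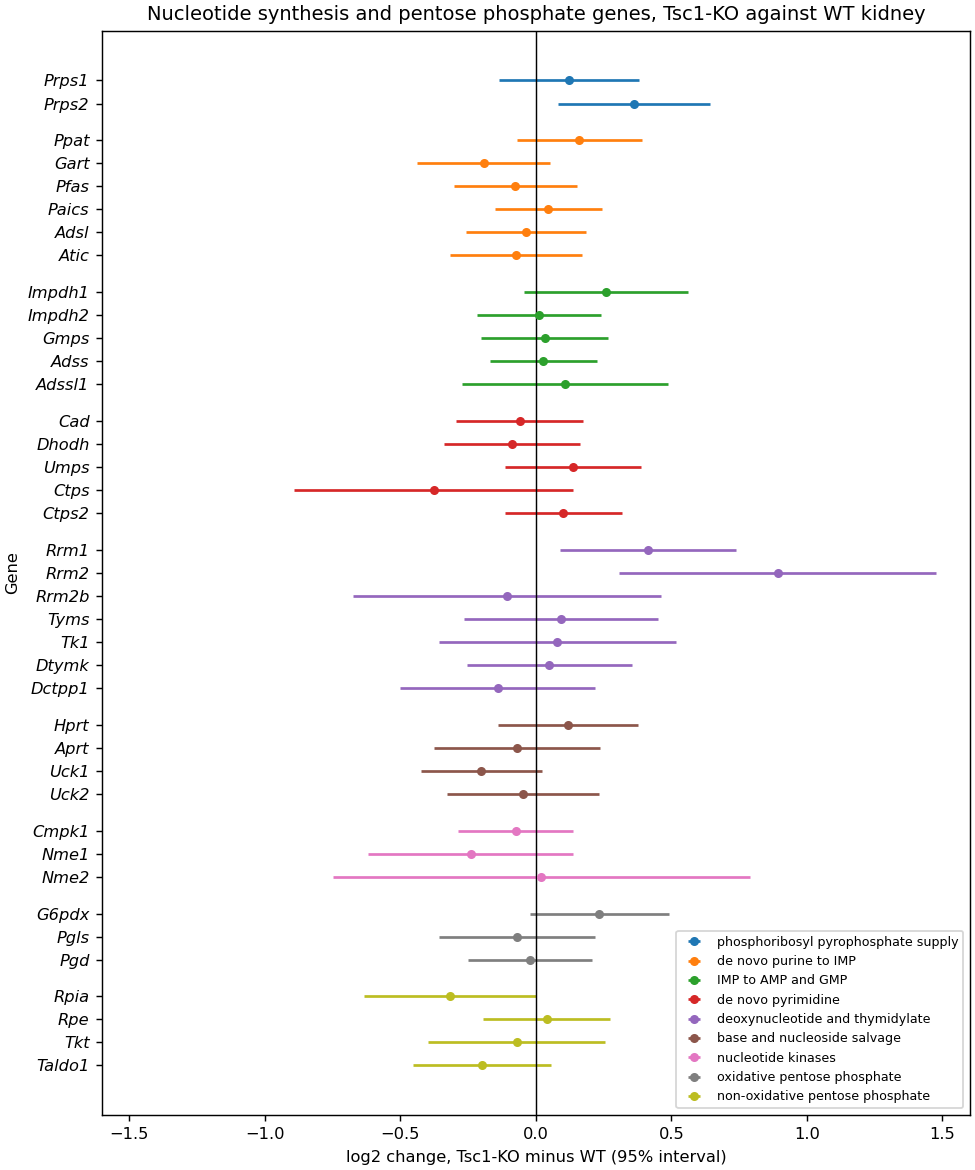
Log2 difference of each of the 39 genes, Tsc1-KO minus WT (horizontal axis), with its 95% interval, grouped and coloured by pathway step (n = 4 libraries per genotype). Most points lie within 0.25 of 0, and Rrm2 at 0.89 stands farthest out, with an interval from 0.31 to 1.48.

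The widest differences of the set were those of Rrm2 and Rrm1, in deoxynucleotide synthesis. Rrm2 encodes the small subunit of ribonucleotide reductase, whose level follows S phase in dividing cells (Rrm2, ENSMUSG00000020649, chr12:24708241-24714146). Its levels were 12.03, 15.0, 18.6 and 25.04 CPM in WT 1 to 4, and 19.8, 42.2, 31.6 and 37.5 CPM in Tsc1-KO 5 to 8. The groups overlapped through Tsc1-KO 5 alone, which lay between WT 3 and WT 4, and the other Tsc1-KO libraries lay above every WT library. The WT mean was 17.7 ± 5.60 CPM and the Tsc1-KO mean 32.8 ± 9.71 CPM (SD over 4 libraries). The fitted difference was 0.89 ± 0.26 (SE) on the log2 scale, or 1.86-fold with a 95% interval of 1.24 to 2.78, with an adjusted p of 0.0922 by edgeR. Rrm2 was the only member called under any alternative tried. It was called by DESeq2 (log2 difference 0.88, adjusted p = 0.0152), which called 7.36% of 20482 genes in either direction. It was also called with Y-linked reads as a term of the model (0.93, adjusted p = 0.0456), where 6.07% of genes were called. The call without Tsc1-KO 5 (1.07, adjusted p = 0.0337) left out the lowest Tsc1-KO library for Rrm2, which raises the difference. That fit called 562 genes in all, and no fit without another single library called Rrm2. Over all 17 alternatives its adjusted p ran from 0.0152 to 0.300 and its difference from 0.66 to 1.18.

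Rrm1, the large subunit of the same enzyme (ENSMUSG00000030978, chr7:102441695-102469771), stood at 24.0, 26.1, 21.5 and 30.0 CPM in WT 1 to 4. In Tsc1-KO 5 to 8 its levels were 26.3, 40.0, 35.3 and 33.6 CPM. As with Rrm2, Tsc1-KO 5 was the lowest Tsc1-KO library and fell among the WT values, while the other 3 lay above all WT libraries. The difference was 0.41 ± 0.15 (SE) on the log2 scale, or 1.33-fold (95% interval 1.06 to 1.67), and it did not pass the test (adjusted p = 0.162). Rrm2b, the stress-inducible alternative small subunit, ran from 12.03 to 30.1 CPM in WT and from 14.5 to 25.5 CPM in Tsc1-KO, with a difference of −0.11 (95% interval −0.68 to 0.46). Its WT libraries spread 2.50-fold, the widest WT spread of any member.

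The cell cycle and DNA replication genes were measured beside ribonucleotide reductase. All 26 had a positive log2 difference, with a median of 0.73 against 0.00 over all genes. Of these 26, 15 reached an unadjusted p under 0.05 by edgeR, against 17.6% of all genes in either direction. Called higher were 3, against 3.5% of all genes. These were the spindle checkpoint kinase Bub1b (1.43, adjusted p = 0.016), the DNA methylation factor Uhrf1 (1.03, adjusted p = 0.0487) and the cell cycle inhibitor Cdkn1a (2.13, adjusted p = 0.00291). The summed level of the 26 was 217 to 391 CPM in WT, against 306 to 569 CPM in Tsc1-KO. Within WT, 25 of the 26 were lowest in library 1, and within Tsc1-KO 25 were lowest in library 5, the libraries where Rrm2 was also lowest. The proliferation marker Mki67 was at 9.67, 22.9, 27.6 and 38.8 CPM in WT 1 to 4 and at 19.7, 43.7, 56.5 and 44.8 CPM in Tsc1-KO 5 to 8 (0.73, adjusted p = 0.463). Whether the share of dividing cells took part in the Rrm2 difference was not tested.

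The other deoxynucleotide members had smaller estimates. Tyms, thymidylate synthase, was 19.8 ± 3.25 CPM in WT, against 21.1 ± 4.02 CPM in Tsc1-KO (log2 difference 0.09, 95% interval −0.26 to 0.45). Tk1, the cytosolic thymidine kinase that also follows S phase, was 22.1 ± 5.71 and 23.3 ± 4.71 CPM (0.08, interval −0.36 to 0.52). Dtymk, which phosphorylates thymidylate, had a difference of 0.05, and Dctpp1, which removes surplus dCTP, of −0.14. None of these 4 passed the test, and the upper ends of their intervals, 0.52 or less, lie below the Rrm2 estimate. Whether their differences are unlike that of Rrm2 was not tested.

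**Figure D2:**
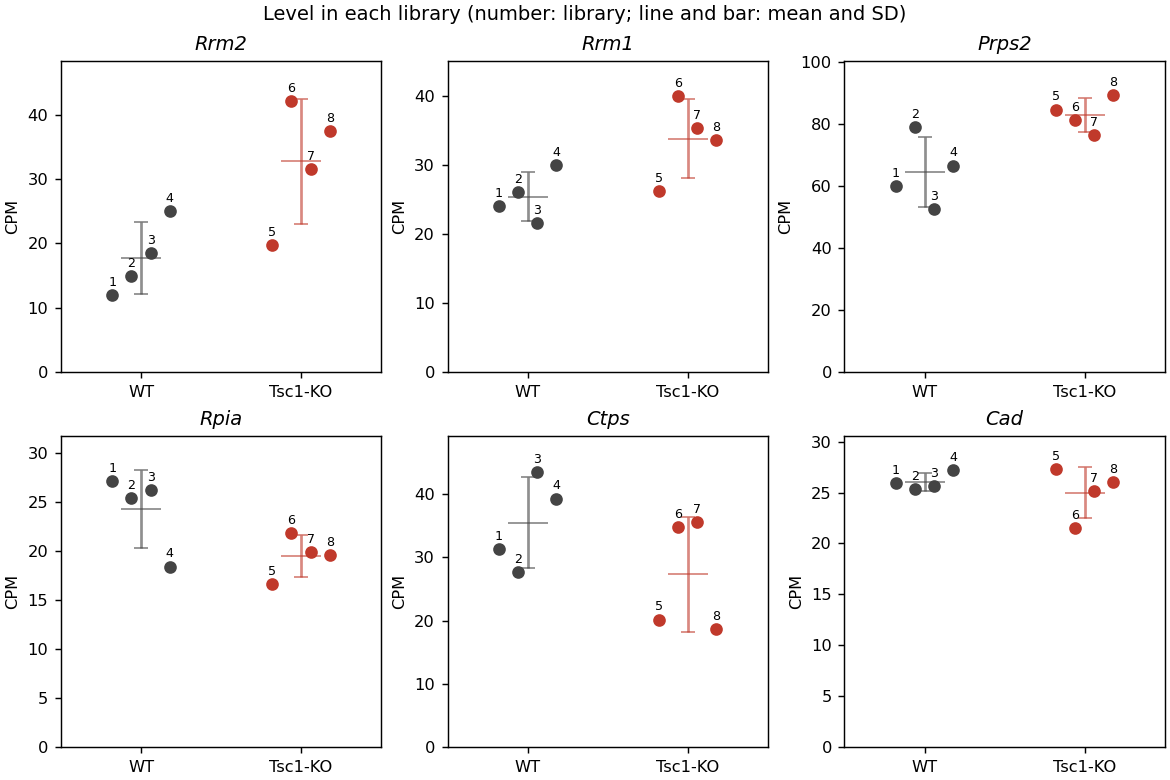
CPM of 6 members in each library (points, numbered by library) with the mean and SD of WT and Tsc1-KO (n = 4 each). For Rrm2 and Rrm1 the Tsc1-KO 5 point lies among the WT points, at 19.8 and 26.3 CPM, and for Ctps the libraries Tsc1-KO 5 and 8 lie apart from 6 and 7.

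Both phosphoribosyl pyrophosphate synthetases lie on the X chromosome. Prps2 (ENSMUSG00000025742, chrX:167346322-167382749) was at 60.1, 79.0, 52.4 and 66.6 CPM in WT 1 to 4 and at 84.7, 81.3, 76.5 and 89.3 CPM in Tsc1-KO 5 to 8. Of the Tsc1-KO libraries 3 lay above every WT library, and WT 2 lay above Tsc1-KO 7. The difference was 0.36 ± 0.13 (SE) on the log2 scale, or 1.29-fold (95% interval 1.06 to 1.56), and did not pass the test (adjusted p = 0.158, and 0.0749 to 0.759 over the alternatives). Prps1 was 22.02 ± 2.06 CPM in WT and, in the Tsc1-KO libraries, 24.0 ± 2.37 CPM (0.12, interval −0.14 to 0.38). Its reads may be shared with the gene named Prps1l3 on chromosome 12, which held 420 to 792 counts per library, so the level of Prps1 is uncertain. The 5 members on the X chromosome, Prps1, Prps2, Ctps2, Hprt and G6pdx, had differences of 0.10 to 0.36 with a median of 0.12, and none was called.

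The purine route to IMP was nearly level between the genotypes. Paics, the bifunctional carboxylase and ligase, was the most abundant of its genes, at 79.0 ± 1.42 FPKM in WT and 80.4 ± 3.03 FPKM in Tsc1-KO. FPKM is the authors' count per gene length and library size factor, used here wherever genes are compared in level. The Paics log2 difference was 0.05 with a 95% interval of −0.15 to 0.24. Ppat, the amidotransferase that commits the route, had a difference of 0.16 (interval −0.07 to 0.39), and its levels were 54.8 to 59.7 CPM in WT, against 54.2 to 70.1 CPM in Tsc1-KO. Ppat and Paics are read head to head on chromosome 5, where 6.15% of the exonic bases of Ppat and 8.66% of those of Paics overlap on opposite strands in the GENCODE M21 annotation. Gart, the trifunctional enzyme, had a difference of −0.19 (interval −0.44 to 0.05), and 3 of its Tsc1-KO libraries lay below every WT library. In the same annotation 19.7% of the exonic bases of Gart overlap Gm15964 on the other strand. The difference was −0.08 for Pfas, −0.04 for Adsl, which acts both here and in the AMP branch, and −0.07 for Atic, which closes the ring. The summed level of the 6 genes was 484 to 502 CPM in WT, against 473 to 512 CPM in Tsc1-KO. The WT range thus lay inside the Tsc1-KO range.

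All 5 genes of the branch from IMP to AMP and GMP had small positive differences, with a median of 0.03, and none passed the test. Over all 18048 genes, 9157 had a positive difference. Under the 17 alternatives the sign changed in 11 for Impdh2, in 3 for Adss and in 2 for Gmps, while Impdh1 and Adssl1 kept theirs. Impdh1 and Impdh2 encode IMP dehydrogenase, the entry to GMP. Impdh1 stood at 12.8, 12.9, 15.3 and 15.3 CPM in WT 1 to 4 and at 15.0, 18.5, 19.1 and 14.7 CPM in Tsc1-KO 5 to 8. Libraries Tsc1-KO 6 and 7 lay above every WT library and 5 and 8 did not. Its difference was 0.26 (interval −0.04 to 0.56, adjusted p = 0.378), that of Impdh2 0.01, and that of Gmps, which aminates the product, 0.03. Adss, the adenylosuccinate synthase of most tissues, had a difference of 0.03 (interval −0.17 to 0.22), and Adssl1, its muscle-type relative, of 0.11.

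In the pyrimidine route Cad encodes the enzyme of the opening 3 steps, and its transcript was close to constant. It was at 25.9, 25.3, 25.6 and 27.2 CPM in WT 1 to 4 and at 27.3, 21.5, 25.1 and 25.99 CPM in Tsc1-KO 5 to 8. The values interleave, with Tsc1-KO 6 lowest and Tsc1-KO 5 highest. Its log2 difference was −0.06 with a 95% interval of −0.30 to 0.17, or 0.815-fold to 1.13-fold. A transcript level says nothing of CAD phosphorylation. Dhodh, the mitochondrial dehydrogenase, had a difference of −0.09, and Umps, which attaches and decarboxylates orotate, of 0.14. The summed level of the 5 genes was 148 to 156 CPM in WT, against 146 to 154 CPM in Tsc1-KO.

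Ctps and Ctps2 encode CTP synthetases. Ctps (ENSMUSG00000028633, chr4:120539868-120570276) had the most negative difference of the set. It stood at 31.3, 27.8, 43.4 and 39.3 CPM in WT 1 to 4 and at 20.2, 34.8, 35.6 and 18.6 CPM in Tsc1-KO 5 to 8. Tsc1-KO 5 and 8 lay below every WT library, and Tsc1-KO 6 and 7 lay inside the WT range. The difference of −0.38 ± 0.23 (SE), with an interval of −0.89 to 0.14, did not pass the test (adjusted p = 0.461). Ctps2 was 35.7 ± 1.80 CPM in WT, against 38.3 ± 2.83 CPM in Tsc1-KO (0.10, interval −0.11 to 0.32).

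Among the salvage enzymes none passed the test. Hprt, which recovers hypoxanthine and guanine, had a difference of 0.12, and Aprt, which recovers adenine, of −0.07. Uck1, a uridine and cytidine kinase, was 99.3 ± 5.43 CPM in WT, against 86.3 ± 8.49 CPM in Tsc1-KO (−0.20, interval −0.43 to 0.02, adjusted p = 0.343), and 3 of the 4 Tsc1-KO libraries lay below the WT range. Its relative Uck2 had a difference of −0.05. Among the nucleotide kinases Cmpk1, which phosphorylates UMP and CMP, had a difference of −0.07. Nme1, a nucleoside diphosphate kinase, was at 31.1 to 49.8 CPM in WT, and at 46.7 CPM in Tsc1-KO 6 against 30.8 to 32.1 CPM in the other Tsc1-KO libraries (−0.24, interval −0.62 to 0.14). Nme2 is listed at 0.795 to 1.87 CPM over all libraries, with a difference of 0.02 (interval −0.75 to 0.79). In the GENCODE M21 annotation 48.9% of the exonic bases of Nme2 and 12.5% of those of Nme1 are shared on the same strand with the gene Gm20390. The deposited table lists no gene of that name. How reads in shared exons were assigned is not given in the sources used here, so the levels of both are uncertain.

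The pentose phosphate genes held the most abundant transcript of the set. Taldo1, transaldolase, reached 121 ± 11.3 FPKM in WT, the highest level of the 39, and Tkt, transketolase, 46.9 ± 8.84 FPKM. In the oxidative branch, G6pdx encodes the dehydrogenase that commits glucose phosphate to the pathway and makes NADPH. It stood at 28.6, 38.95, 29.0 and 33.5 CPM in WT 1 to 4 and at 37.5, 39.8, 36.9 and 38.8 CPM in Tsc1-KO 5 to 8. The Tsc1-KO libraries lay close together near the top of the WT range, where WT 2 also lay. The difference was 0.23 (interval −0.02 to 0.49, adjusted p = 0.340). In the GENCODE M21 annotation 13.6% of the exonic bases of G6pdx overlap Ikbkg on the other strand. Pgd, the next dehydrogenase, had a difference of −0.02 (interval −0.25 to 0.21) and Pgls, the lactonase between them, of −0.07 (interval −0.36 to 0.22). For Pgls 20.6% of the exonic bases are shared with Fam129c on the same strand.

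In the non-oxidative branch the median difference was −0.13. Rpia, the isomerase that yields ribose phosphate (ENSMUSG00000053604, chr6:70765720-70792232), was at 27.1, 25.4, 26.3 and 18.4 CPM in WT 1 to 4 and at 16.7, 21.9, 19.9 and 19.6 CPM in Tsc1-KO 5 to 8. All 4 Tsc1-KO libraries lay below WT 1, 2 and 3, and WT 4 lay among them. The difference was −0.32 ± 0.14 (SE), or 0.803-fold (interval 0.645 to 0.999) with an adjusted p of 0.282 by edgeR. Taldo1 was at 269.6, 247.3, 295.1 and 241.3 CPM in WT and at 199.3, 260.0, 234.6 and 224.3 CPM in Tsc1-KO (−0.20, interval −0.45 to 0.06), with only Tsc1-KO 6 inside the WT range. Tkt had a difference of −0.07 (interval −0.40 to 0.26), and Rpe, the epimerase, of 0.04. Rpe shares 17.9% of its exonic bases with Kansl1l on the other strand.

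**Figure D3:**
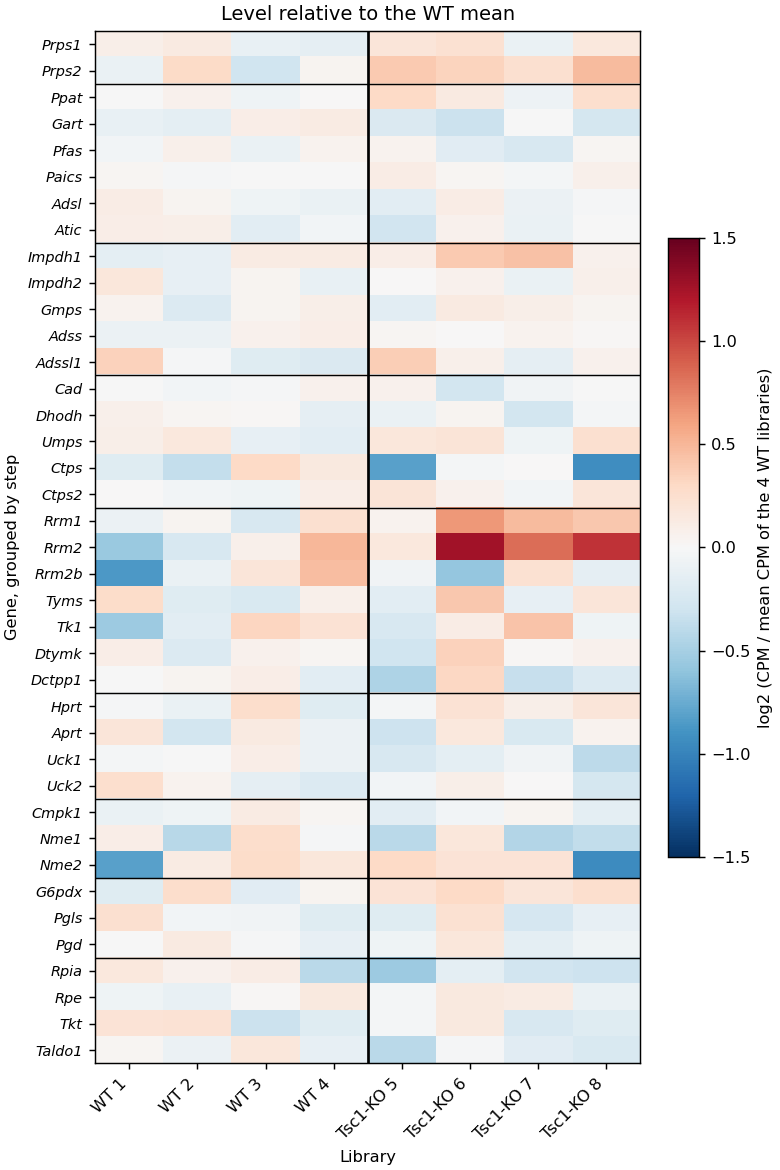
Level of each of the 39 genes (rows, grouped by step) in each library (columns), as the log2 of its CPM over the mean CPM of the 4 WT libraries. Rrm2 is red in Tsc1-KO 6, 7 and 8 and pale in Tsc1-KO 5, and most other rows are pale in all 8 libraries.

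Y-linked reads split each genotype into libraries with and without them, and the members were compared across that split too. No member was called for the Y-linked term, where 0.399% of all genes were called, and 3 members reached an unadjusted p under 0.05 (edgeR). The share of all genes at that unadjusted level was not counted for this term, so these 3 are given as a description. Tkt was 293 CPM on average in the libraries with Y-linked reads and 379 CPM in those without, in both genotypes together (log2 difference −0.37, adjusted p = 0.208). Tkt was at 397.5, 400.6, 275.1 and 304.3 CPM in WT 1 to 4 and at 336.9, 381.6, 290.5 and 302.6 CPM in Tsc1-KO 5 to 8. All 4 libraries without such reads lay above all 4 with them, an order whose share over all genes was not counted. Rrm2b was 25.04 CPM with and 16.98 CPM without (0.56, adjusted p = 0.350), and Tk1 was 26.04 and 19.3 CPM (0.44, adjusted p = 0.361). The genotype difference itself was not shown to depend on the split. No member was called for the interaction by edgeR, and none reached an unadjusted p under 0.05. None of the 18048 genes tested was called for it either, so the absence of calls is not particular to the members.

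The balance of isoenzymes was compared as the share of a gene in the summed FPKM of its pair, as a description. Prps1 held 40.1% ± 3.49 of its pair in WT and 35.9% ± 1.79 in Tsc1-KO (SD, n = 4 each here and below), so Prps2 was the larger share in both. Impdh1 held 27.2% ± 3.14 and 30.6% ± 3.64, with Impdh2 the larger share. Adss held 82.1% ± 3.54 and 81.4% ± 2.25 of the pair with Adssl1, and Uck1 87.7% ± 1.69 and 86.5% ± 0.60 of the pair with Uck2. Rrm2 held 70.8% to 76.7% of the pair with Rrm2b in WT and 75.7% to 90.6% in Tsc1-KO. Those ranges overlap in WT 1 and Tsc1-KO 5. Ctps held 53.2% to 64.4% of the pair with Ctps2 in WT, against 39.6% to 59.4% in Tsc1-KO, where 2 libraries lay inside the WT range. Nme1 held 90.3% ± 3.32 and 88.8% ± 3.76 of its pair, with the limit on assigning reads given above.

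**Figure D4:**
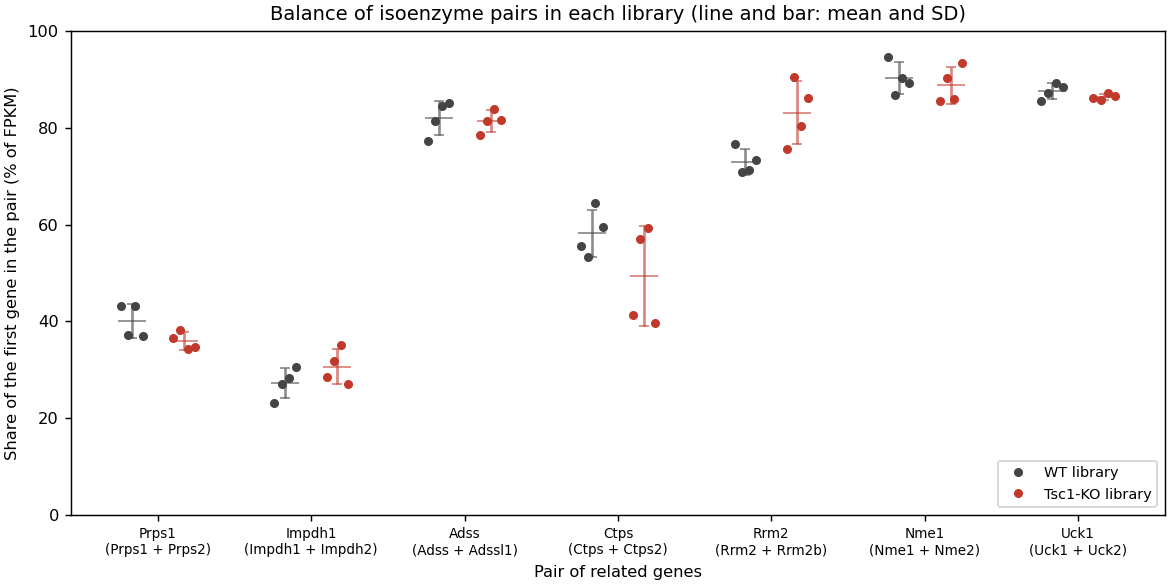
Share of the first-named gene in the summed FPKM of each isoenzyme pair (vertical axis, percent), for each WT and Tsc1-KO library, with mean and SD (n = 4 each). The Rrm2 share runs from 70.8% to 76.7% in WT and from 75.7% to 90.6% in Tsc1-KO, and the WT and Tsc1-KO ranges overlap in every pair.

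Genes around these routes were counted from 6 further lists of 62 genes, of which 57 were tested. Of these 57, 5 were called higher and 1 lower (edgeR), against 3.5% and 1.16% of all genes. Their median difference was 0.02, against 0.00 over all genes. Itpa, which breaks down deaminated purine nucleotides such as ITP (ENSMUSG00000074797, chr2:130667610-130681614), was at 8.15, 9.15, 8.47 and 8.20 CPM in WT and at 32.1, 46.4, 34.5 and 33.8 CPM in Tsc1-KO. The groups lay far apart, and Itpa rose 4.32-fold (95% interval 3.49 to 5.34, adjusted p = 1.36e-05). It was called without each library in turn and in both subsets by Y-linked reads. Itpa lies on chromosome 2, as do Ada, Slc28a2 and Tsc1. The member Uck1, which was not called, lies there too, but far from Itpa (chr2:32255002-32260159). Whether position on this chromosome took part in these differences was not tested.

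Mthfd2, the mitochondrial folate enzyme that feeds one-carbon units to purine synthesis, was at 5.65, 5.08, 5.29 and 3.73 CPM in WT and at 8.88, 18.01, 10.1 and 14.7 CPM in Tsc1-KO. It rose 2.62-fold (interval 1.81 to 3.77, adjusted p = 0.00794) with no overlap of the groups. It was called without each library in turn, but within neither subset by Y-linked reads (adjusted p = 0.129 and 0.124). Its log2 difference was 1.39, while those of the 6 genes of purine synthesis to IMP ran from −0.19 to 0.16. Shmt2, which works beside Mthfd2 in mitochondria, was lower in all 4 Tsc1-KO libraries than in any WT library but did not pass the test (−0.45, adjusted p = 0.0511). In 11.5% of all genes the groups did not overlap, in either direction. Of 12 ATF4 target genes 6 were called higher by edgeR, against 3.5% of all genes, among them the asparagine synthetase Asns (1.75, adjusted p = 0.00608). The median log2 difference of the 12 was 0.64.

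Several breakdown and transport genes also passed. Ada, adenosine deaminase, was at 1.53 to 2.66 CPM in WT, against 4.81 to 9.87 CPM in Tsc1-KO, and rose 3.34-fold (interval 2.25 to 4.95, adjusted p = 0.00334). It was called without each library in turn, but not within the libraries with Y-linked reads (adjusted p = 0.214). The 5 myeloid markers stood beside it, with 3 called higher, against 3.5% of all genes. The summed level of the 5 was 26.4 to 35.0 CPM in WT, against 48.7 to 88.1 CPM in Tsc1-KO. Upp1, uridine phosphorylase, was at 6.15 to 9.13 CPM in WT, against 9.52 to 17.8 CPM in Tsc1-KO, and rose 1.99-fold (adjusted p = 0.0212). Slc28a2, a concentrative nucleoside transporter with 8 to 78 counts per library, was at 0.298 to 0.504 CPM and 0.70 to 2.45 CPM (3.86-fold, interval 2.003 to 7.43, adjusted p = 0.0270).

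Cda, cytidine deaminase, was at 158 to 204 CPM in WT, against 127 to 129 CPM in Tsc1-KO, and fell to 0.711-fold (interval 0.60 to 0.843, adjusted p = 0.0293), beside the lower proximal tubule markers given above. The part of myeloid and proximal tubule cells in these differences was not tested. The calls of Upp1, Slc28a2 and Cda were lost within both subsets by Y-linked reads and without single libraries. That of Upp1 was lost without any of WT 2, 3 and 4 and Tsc1-KO 5, 6 and 8 (adjusted p up to 0.0765). That of Slc28a2 was lost without any library but Tsc1-KO 8 (up to 0.0836), and that of Cda without any of WT 1, WT 3 and Tsc1-KO 5, 6 and 8 (up to 0.0961).

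Among the remaining lists, none of the 4 tested genes next to the pentose phosphate pathway was called by edgeR. All 4 had a negative difference, with a median of −0.31, and 3 had an unadjusted p under 0.05. That level was reached by 17.6% of all genes in either direction. Shpk, a sedoheptulose kinase, was lower in each Tsc1-KO library than in any WT library (−0.41, adjusted p = 0.0944), and 11.5% of all genes had groups that did not overlap. None of the 13 tested genes of other purine salvage and kinases was called, with 3 at an unadjusted p under 0.05 and a median of −0.04. Of the 10 sterol pathway genes 2 were called higher, against 3.5% of all genes. These were Sqle (0.85, adjusted p = 0.0326) and Insig1 (0.83, adjusted p = 0.0408), and the median of the 10 was 0.49. None of 7 MYC family genes was called, with none at an unadjusted p under 0.05, and none of 9 NRF2 targets, with 2 at that level.

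**Figure D5:**
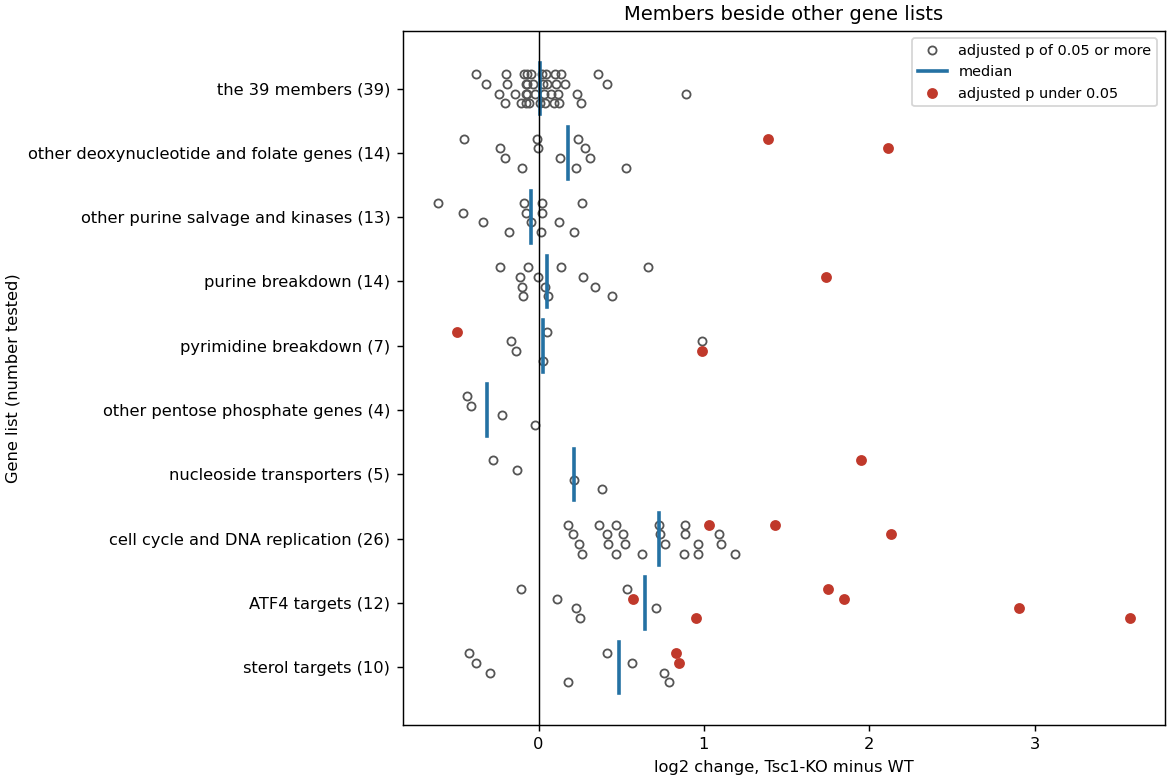
Log2 difference, Tsc1-KO minus WT, of every tested gene of the 39 members and of 9 other lists (1 point per gene, filled where the adjusted p is under 0.05), with the median of each list as a bar. The members centre on 0.01 with no filled point, whereas the cell cycle list centres on 0.73 with 3 filled points and the ATF4 list on 0.64 with 6.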

How the data were processed

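Total kidney RNA of 4 WT and 4 Tsc1-KO samples was poly(A)-selected and sequenced on a HiSeq system, per the labels. Reads were handled with HISAT2 2.0.4 and HTSeq 0.9.1, as the submitters' processing notes list them. No source used here gives the build, the annotation or the strand setting. All 39 members had the positions of GENCODE M21 (GRCm38), so GRCm38 positions are printed. The deposited table holds the authors' raw read count, a normalized signal (the authors' count over a library's size factor), and the authors' FPKM. The FPKM values divide a count by gene length and by a library constant proportional to that size factor, as computed from the table, and not by the library total. Columns and sheets holding the authors' comparisons were not used.

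Counts were tested in R 4.3.3 with edgeR 4.0.16 (filterByExpr with a minimum count of 10, TMM, robust quasi-likelihood test, two-sided), with Benjamini-Hochberg adjustment over 18048 genes and a threshold of 0.05. The 12539 genes left out held 0.116% of counts. The SE of a log2 difference is the difference divided by the square root of F. Alternatives were RLE scaling, DESeq2 1.42.0, no filter, each library left out, Y-linked reads (above 1000) as a term or as subsets, and limma 3.58.1 on log2 of the FPKM plus a pseudocount of 0.5 or 0.1. The fits were tested on simulated data, with 50 genes changed at each size. There edgeR recovered 6% of changes of 0.5 and 70% of changes of 1 on the log2 scale. Scripts read the promoter windows from a RefSeq table.

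All 39 members are named. Of every other list, those called and up to 4 with the smallest adjusted p could be named, and Mki67 was named after its values were seen. The members and lists were chosen with earlier results of these data known. The Y-linked term itself was examined after seeing the data.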

Additional observations from a re-analysis of the deposited data

Results flagged for a closer look

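Of 78 groups of 4 libraries tested (39 members in each genotype), 3 held a library far from the other 3, by Dixon's 95% criterion. Chance flags about 1 in 20 such groups. Nme1 was at 46.7 CPM in Tsc1-KO 6 against 30.8 to 32.1 CPM in the other Tsc1-KO libraries, and Nme2 at 0.795 CPM in Tsc1-KO 8 against 1.76 to 1.87 CPM. Paics was at 252.5 CPM in WT 1 against 245.7 to 246.7 CPM in the other WT libraries, a narrow range in which a small step is enough. No member's genotype difference was called for an interaction with Y-linked reads by edgeR (smallest adjusted p 0.9999, none at an unadjusted p under 0.05). The same held for calls over all 18048 genes tested.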

How the results depend on the processing

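The count of members called lower was 0 under each of the 17 alternatives. The count called higher was 0 except for 1, Rrm2, under DESeq2, with Y-linked reads as a term, and without Tsc1-KO 5. Leaving out each library in turn gave 0 to 1 members called higher and 0 to 0 called lower. Of 663 member values under the alternatives, 650 stayed within 1 SE on the same side of the threshold, 10 moved by more and 3 passed the threshold, all of Rrm2, and no called value changed sign. In 18 members, none with a difference above 0.24 in size, the sign of an uncalled difference changed in 49 values. Nme1 was −0.53 within the libraries with Y-linked reads and 0.02 within those without. Fitted on the 4 libraries with Y-linked reads only, the calls of Mthfd2, Ada, Upp1, Slc28a2 and Cda were lost (adjusted p = 0.129, 0.214, 0.329, 0.334 and 0.362), and within those without them those of Mthfd2, Upp1, Slc28a2 and Cda (0.124, 0.1001, 0.270 and 0.273). By limma with every gene above 0 kept, the calls of Mthfd2 (0.0643), Upp1 (0.106), Slc28a2 (0.219) and Cda (0.0920) were lost, and Slc28a2 was also lost by limma on the genes of the count test (0.0811 with a pseudocount of 0.5 and 0.0544 with 0.1). No paired analysis was possible because the labels give WT and Tsc1-KO different replicate numbers (1 to 4 and 5 to 8). Subsets of 2 against 2 libraries limit what those fits can show, and the 24 to 56 counts of Nme2 limit its precision.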
